A study of Mus musculus with 18 samples.

Results

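The comparison described here sets hearts of mice given polystyrene particles together with isoproterenol against hearts of mice given isoproterenol alone, within the second of 2 sequencing batches. The libraries were chosen by their labels, and batch 2 holds 6 of the 18 libraries of the series. These are 3 libraries of isoproterenol alone (ISO replicates 4, 5 and 6) and 3 of isoproterenol with polystyrene (PS): 1 with 100 nm particles (100 nm PS replicate 6) and 2 with 1 µm particles (1 µm PS replicates 5 and 6). All entries of the batch 2 table were used, 57010 in number. Of these, 14172 passed the filter on low counts and were tested, and 730 of the tested entries had no partner in the table of batch 1.

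All animals were wild-type male C57BL/6 mice. Every group received isoproterenol, 2.5 mg/kg per day under the skin for 21 days, so the series holds no unstressed heart and no heart given PS without isoproterenol. The PS groups also received particles by oral gavage, 50 mg/kg per day for 21 days, and the ISO group received water by gavage. Poly(A)-selected libraries of whole hearts were sequenced by Novogene (batch 1) and Majorbio (batch 2). The sources used here give neither the hour at which hearts were collected nor the age of the mice. With 1 library of the smaller particle, the 2 sizes could not be compared within batch 2. No label states that each library is 1 animal, so p-values measure the spread between these libraries, and in whole-heart RNA fewer cells of a type and less RNA per cell cannot be told apart.

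Isoproterenol stimulates beta-adrenergic receptors, and sustained dosing in rodents leads to hypertrophy and fibrosis of the heart. Heart muscle cells carry their own circadian clock. In it BMAL1 (gene Arntl) pairs with CLOCK or NPAS2 and drives Per, Cry, Nr1d1, Nr1d2, Ciart and the output factor Dbp through E-box motifs, PER and CRY proteins inhibit that pair, and the REV-ERB receptors (Nr1d1, Nr1d2) repress Arntl, Npas2 and Nfil3. Transcripts driven directly by BMAL1 and transcripts repressed by REV-ERB therefore peak at different times of day. The heart is also rich in mitochondria, whose own genome encodes 13 proteins of oxidative phosphorylation, and the nuclear genome carries inserted copies of mitochondrial DNA.

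Total counts per library in batch 2 ran from 17361542 to 22600570. On the first principal component, which held 50.9% of the variance, the ISO libraries lay between -63.5 (replicate 4) and -19.5 and the PS libraries between 9.84 and 64.9 (1 µm PS replicate 5), so these 2 libraries stood farthest apart. Deviations of genes from their mean over the 6 libraries were correlated with GC content within each library. Spearman's rho across genes was -0.333, -0.01 and -0.636 in the ISO libraries and 0.377, 0.352 and 0.285 in the PS libraries. For transcript length rho was -0.349, -0.363 and 0.071 in ISO replicates 4, 5 and 6, and 0.168, 0.265 and 0.164 in the PS libraries. The 12 cardiac myocyte markers summed to between 86880 and 101900 CPM (counts per unit of scaled library size) in ISO and between 88520 and 111400 CPM in PS, none of the 12 passed the test, and markers of lung and thymus summed to at most 4.16 CPM in any library.

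In the edgeR quasi-likelihood fit, 964 of 14172 genes passed an adjusted p of 0.05 (6.8%), 326 of them higher with PS (2.3%) and 638 lower (4.5%). The gene with the smallest p was Arntl, the core activator of the clock, and 10 of 19 clock genes passed. Of the genes called, those of nuclear oxidative phosphorylation, the ribosome and the mitochondrial genome were lower with PS, and matrix genes were higher. The median log2 fold change over all genes tested was 0.008, and 4199 genes had an unadjusted p under 0.05. The arms did not overlap in CPM for 2489 genes higher with PS (17.6%) and 2492 lower (17.6%). These counts rest on 3 libraries against 3: without ISO replicate 4 only 5 genes were called, without 1 µm PS replicate 5 only 4, without 100 nm PS replicate 6 only 12, without ISO replicates 5 and 6 in turn 361 and 386, and without 1 µm PS replicate 6 there were 1570.

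Of 19 clock genes tested, 10 changed in batch 2: 3 rose and 7 fell, against 6.8% of all genes called. For 13 of the 19 the arms did not overlap, 5 higher and 8 lower with PS, against 17.6% of all genes in each direction. The risers were Arntl and Npas2, which encode the activating partners, and Nfil3, a repressor at D-box motifs. The fallers were Per2 and Per3 (inhibitors of the activating pair), Ciart (another inhibitor of that pair), Nr1d2 (the receptor REV-ERB beta), Rora (an activator of Arntl), and Dbp and Hlf (activators at D-box motifs). The median over the 19 genes was -0.39 on the log2 scale.

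Arntl was at 3.10, 3.70 and 2.89 CPM in ISO replicates 4, 5 and 6. With PS it was at 19.9 CPM in 100 nm PS replicate 6 and at 20.2 and 20.5 CPM in 1 µm PS replicates 5 and 6. The 3 PS values had an SD of 0.305 CPM and all lay above every ISO value (2.64 on the log2 scale, SE 0.21, adjusted p = 0.0008002 by edgeR, n = 3 against 3). Arntl passed the edgeR test without each of the 6 libraries in turn, with log2 fold changes from 2.57 to 2.76. Npas2 was at 0.528, 1.29 and 1.33 CPM in ISO and at 6.00, 8.25 and 9.11 CPM with PS, again without overlap (log2 fold change 2.87, SE 0.37, adjusted p = 0.01837). Nfil3 was at 5.35, 8.14 and 5.55 CPM in ISO against 17.5, 23.0 and 29.4 CPM with PS, with every PS library above every ISO library (log2 fold change 1.88, SE 0.26, adjusted p = 0.01837).

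Dbp, the D-box activator used as a marker of clock output, moved the other way. It was at 201, 169 and 149 CPM in ISO and at 34.8, 29.0 and 12.5 CPM with PS, so that the highest PS library lay well under the lowest ISO library (log2 fold change -2.77, SE 0.35, adjusted p = 0.01837). Ciart was at 12.4, 8.69 and 9.49 CPM in ISO and at 2.44, 2.07 and 0.959 CPM with PS (log2 fold change -2.47, SE 0.34). Nr1d2 was at 81.8, 47.2 and 88.6 CPM in ISO and at 21.8, 16.4 and 16.2 CPM with PS (log2 fold change -2.003, SE 0.26, adjusted p = 0.01837). In all 3 of these genes the 2 arms were fully separate. Per2 fell from 11.8, 13.6 and 13.4 CPM to 5.85, 4.19 and 5.70 CPM, and Per3 from 24.9, 21.4 and 30.7 CPM to 11.1, 7.98 and 6.95 CPM, both with an adjusted p of 0.02186. The log2 fold changes of Per2, Per3, Hlf and Rora were -1.30 (SE 0.22), -1.57 (SE 0.24), -1.24 (SE 0.20) and -1.10 (SE 0.21).

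The other 9 clock genes did not pass. Among them was Tef, a D-box activator (-0.88, SE 0.26, adjusted p = 0.05802). Clock itself, the usual partner of BMAL1, was at 20.6, 15.0 and 22.1 CPM in ISO and at 19.5, 15.0 and 23.2 CPM with PS (log2 fold change 0.00, SE 0.23), with no separation. Nr1d1 (REV-ERB alpha) was at 125, 193 and 164 CPM in ISO and at 183, 142 and 48.9 CPM with PS (-0.37, SE 0.41), where 1 µm PS replicate 6 was the low library. Per1 (0.16, SE 0.33), Cry1 (0.39, SE 0.23), Cry2 (-0.39, SE 0.22), Bhlhe40 (0.13, SE 0.20) and Bhlhe41 (-0.57, SE 0.34) gave values within 0.6 of 0. Every one of the 10 changed genes kept its sign when any of the 6 libraries was left out, but only Arntl passed without ISO replicate 4 or without 1 µm PS replicate 5. With a term for GC content and transcript length in each library, 17 genes of the whole table were called, and 9 of these were clock genes; Rora was no longer among them (adjusted p = 0.132).

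**Figure D1:**
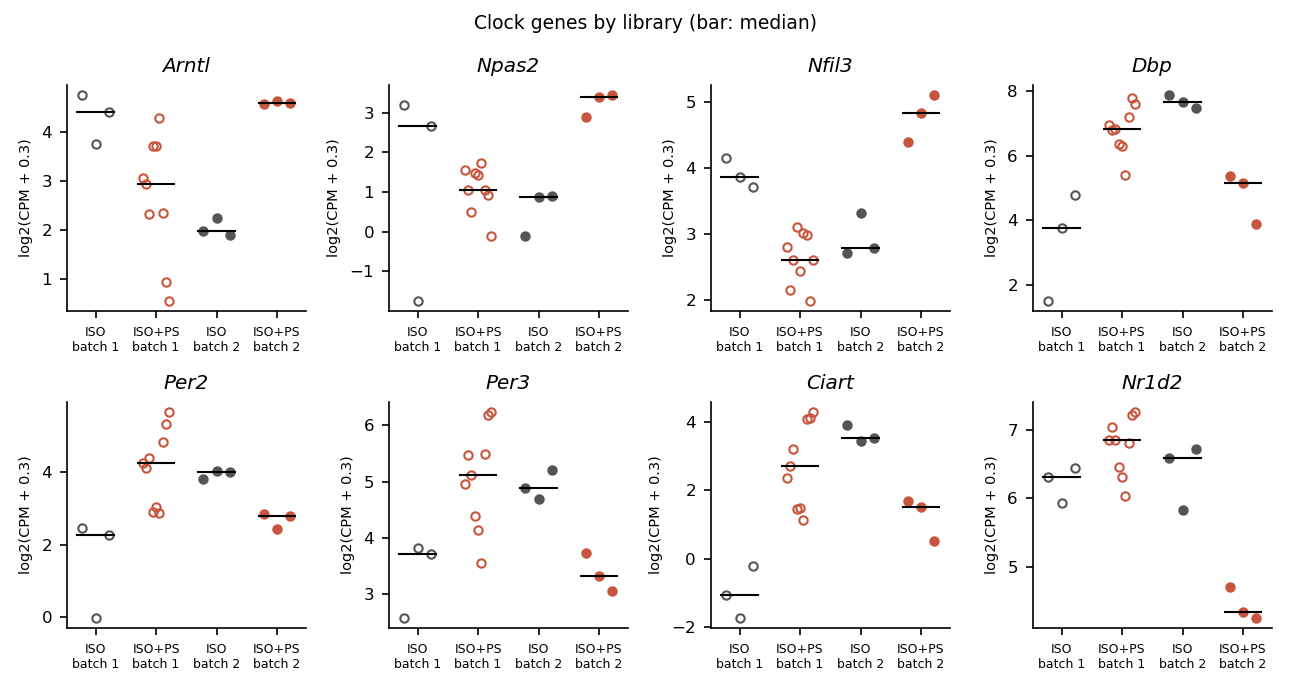
Levels of 8 clock genes in each of the 18 libraries, as log2(CPM + 0.3) from the joint scaling of both batches; open symbols are batch 1, filled symbols batch 2, grey ISO, red ISO with PS, and bars mark medians. Arntl, Npas2 and Nfil3 are lower with PS at the median in batch 1 and higher with PS in batch 2, and Dbp, Per2, Per3, Ciart and Nr1d2 show the reverse.

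The same clock genes moved in the opposite direction in batch 1, where 3 ISO libraries were set against 9 PS libraries. There 10 of the 19 clock genes passed, 7 higher and 3 lower, with a median log2 fold change of 0.73, when 16.6% of all genes tested in batch 1 were called. On the joint scale of the 18 libraries, Dbp in batch 1 ran from 2.54 to 27.4 CPM in ISO (median 13.4) and from 42.3 to 218 CPM with PS (median 114). In batch 2 it ran from 178 to 236 CPM in ISO and from 14.5 to 41.3 CPM with PS. The PS libraries of batch 2 thus had Dbp levels near the ISO libraries of batch 1, and the ISO libraries of batch 2 near the PS libraries of batch 1; the 2 tables were counted separately. The log2 fold change of Dbp was 3.07 in batch 1 (SE 0.65, adjusted p = 0.009785) and -2.77 in batch 2, a difference of -5.83 (SE 0.87, adjusted p = 0.007009 for the batch by PS term).

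Nfil3 gave the mirror image. On the joint scale it ran from 12.9 to 17.6 CPM in ISO and from 3.67 to 8.32 CPM with PS (median 5.80) in batch 1, and from 6.29 to 9.73 CPM in ISO and from 20.8 to 34.3 CPM with PS in batch 2. No ISO value overlapped a PS value in either batch, and the order was turned (difference 3.16, SE 0.38, adjusted p = 0.001029). Over the batch by PS term, 10 of the 19 clock genes passed, 4 higher and 6 lower in batch 2, against 2.2% of the 15441 genes tested. Among the 4 higher were Arntl (3.98, adjusted p = 0.03453), Npas2 (4.24, adjusted p = 0.0492) and Nfil3. The 6 lower were Dbp, Ciart (-7.43, adjusted p = 0.01708), Nr1d2 (-2.56, adjusted p = 0.009794), Per2 (-3.97, adjusted p = 0.03969), Per3 (-3.41, adjusted p = 0.03342) and Tef (-2.003, adjusted p = 0.03775). Hlf and Rora, which fell in batch 2, did not pass it (adjusted p = 0.05652 and 0.4605). Across its alternatives the number of clock genes with a batch by PS difference ran from 2, with the replicate block, to 13. Batch also stands for the company that did the sequencing and for the table's annotation, and how far these, or the hour of collection, bear on the turned order was not tested.

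Ciart and Per3 both passed with opposite signs in the 2 batches, and their promoters carry the motifs by which the clock is known to drive them, so these 2 are shown. Each sequence spans 250 bases before to 50 bases after the RefSeq start (GRCm38.p6, minus strand for both), chr3:95882179-95882478 for Ciart and chr4:151044616-151044915 for Per3, 5′ to 3′ along the gene. Capitals mark E-boxes (CACGTG) in Ciart and D-boxes (TTATGTAA, found on either strand) in Per3.
Ciart: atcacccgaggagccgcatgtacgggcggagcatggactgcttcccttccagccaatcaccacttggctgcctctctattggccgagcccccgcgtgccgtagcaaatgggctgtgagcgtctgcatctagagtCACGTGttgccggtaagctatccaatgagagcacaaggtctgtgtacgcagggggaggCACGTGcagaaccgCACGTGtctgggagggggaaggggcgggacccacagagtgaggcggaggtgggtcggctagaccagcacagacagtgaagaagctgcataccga
Per3: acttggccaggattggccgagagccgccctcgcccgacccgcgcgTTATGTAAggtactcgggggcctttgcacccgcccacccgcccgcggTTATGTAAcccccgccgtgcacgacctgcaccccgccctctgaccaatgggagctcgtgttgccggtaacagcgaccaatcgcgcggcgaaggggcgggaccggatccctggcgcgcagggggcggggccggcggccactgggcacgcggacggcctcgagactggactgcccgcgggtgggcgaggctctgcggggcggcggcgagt
The Ciart window holds 3 E-boxes and the Per3 window 2 D-boxes. Of the 10 changed clock genes 9 have an entry among the 32851 RefSeq promoter windows, and Per2 has none. CACGTG occurred in 1 of those 9 genes (Ciart) and in 7.15% of all windows, and TTATGTAA in 1 (Per3) and in 0.94% of all windows. AGGTCA, a motif shared by REV-ERB and ROR receptors, occurred in 3 (Arntl, Nfil3 and Nr1d2) and in 16.26% of all windows. Each motif was sought on either strand. A match describes the letters in the window and is not evidence of binding.

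Beyond the clock, the 2 batches shared direction more often than not. Over the 13180 genes tested in both, the log2 fold changes of batch 2 had a Pearson's r of 0.278 and a Spearman's rho of 0.307 with those of batch 1. Genes are not independent replicates, and the 2 contrasts share no library. Of 912 genes called in batch 2 and tested in batch 1, 774 had the same sign in batch 1 (84.87%, against 60.96% of all genes tested in both). Called in both batches in the same direction were 187 genes, which is 19.4% of the calls of batch 2 and 7.44% of those of batch 1.

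Called in both batches with opposite signs were 17 genes, and 5 of them are clock genes: Dbp, Nfil3, Ciart, Per3 and Per2. The other 12 were Dusp8, Colq, Tceal9, Tspan4, Miga2, Rbm3, Fam222a, Gemin5, Mgp, Pfdn2, Slc41a3 and Lingo3. Dusp8, a phosphatase that acts on stress-activated MAP kinases, was at 14.7, 8.63 and 10.9 CPM in ISO and at 20.0, 43.6 and 40.1 CPM with PS in batch 2. It was higher in each PS library than in any ISO library (log2 fold change 1.60, SE 0.31), and in batch 1 its log2 fold change was -1.26 (SE 0.21, adjusted p = 0.00413). Rbm3, an RNA-binding protein induced by mild cold, fell from 145, 85.4 and 94.0 CPM to 61.0, 42.2 and 48.8 CPM in batch 2 (-1.09, SE 0.25) and was at 0.54 (SE 0.17, adjusted p = 0.03974) in batch 1. Mgp, an inhibitor of calcification made by vascular and stromal cells, was at -1.06 (SE 0.26) in batch 2 and at 1.20 (SE 0.39, adjusted p = 0.04761) in batch 1.

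**Figure D2:**
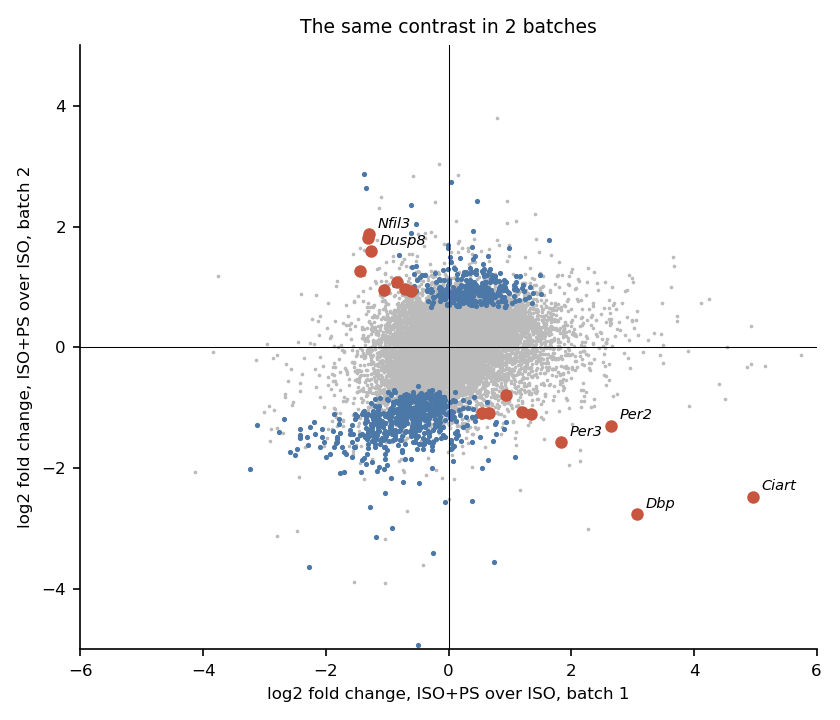
Log2 fold change of ISO with PS over ISO for each gene tested in both batches, batch 1 on the x axis and batch 2 on the y axis; grey, not called in batch 2, blue, called in batch 2, red, the 17 genes called in both with opposite signs, and 8 genes lie beyond the axes. Most blue points lie in the lower left and upper right quadrants, while Dbp, Ciart, Per2 and Per3 lie at the lower right and Nfil3 and Dusp8 at the upper left.

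Across 15441 genes the batch by PS term called 339, 200 higher in batch 2 (1.3%) and 139 lower (0.9%). Sdhaf4, an assembly factor of succinate dehydrogenase, was at 40.2, 36.7 and 34.1 CPM in ISO and at 16.3, 14.1 and 19.4 CPM with PS in batch 2. Its log2 fold change was -1.16 (SE 0.19, adjusted p = 0.02186) there and 0.29 (SE 0.13, adjusted p = 0.1431) in batch 1. Isg20, an interferon-induced exonuclease, was at 5.22, 5.67 and 4.68 CPM in ISO and at 3.23, 2.25 and 2.88 CPM with PS. The arms of Isg20 did not overlap, yet its lower level in batch 2 did not pass (-0.90, SE 0.28, adjusted p = 0.07092), and it rose in batch 1 (1.20, SE 0.20, adjusted p = 0.00413). The count of 339 leans on single libraries: it was 12 without 1 µm PS replicate 5, 17 without ISO replicate 4, 32 without ISO replicate 5, 165 without ISO replicate 6, and 3227 without ISO replicate 2 of batch 1, a library with 13701 genes detected where the other 17 libraries had 18399 to 21576. Without ISO replicates 1 and 3 of batch 1 it was 688 and 1159, and without single PS libraries of batch 1 it ran from 42 to 278.

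Every PS library gave a smaller share of its counts to the mitochondrial genome than every ISO library. The 13 mitochondrial protein-coding genes held 17.8%, 20.3% and 20.4% of the counts in ISO replicates 4, 5 and 6, and 16.3%, 13.4% and 12.3% in 100 nm PS replicate 6 and 1 µm PS replicates 5 and 6. The arms did not overlap (19.5% ± 1.48 against 14.02% ± 2.07, SD, n = 3 each, two-sided exact permutation p = 0.1, the smallest that 3 against 3 allows, adjusted p = 0.167 over 5 shares). A share can fall because its own RNA fell or because other RNA rose. In batch 1 the share of these 13 genes overlapped between arms, from 14.9% to 42.4% in ISO and from 16.1% to 30.9% with PS. The nuclear copies described next, counted apart in batch 2, had no partner in the batch 1 table. The shares of the 2 batches are therefore not a like measure.

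The entries absent from batch 1 include 6 nuclear copies of mitochondrial genes that took a large share of batch 2. Gm28661 matches mt-Co2 (subunit 2 of cytochrome c oxidase) at 100% over 681 bases, Gm10925 matches mt-Atp6 (a subunit of ATP synthase) at 100% over 678 bases, and Gm28437 matches mt-Co3 (subunit 3 of the oxidase) at 100% over 783 bases. Gm10222 matches mt-Nd4l at 100% over 294 bases, Gm28438 matches mt-Nd3 at 99.71% over 345 bases (both genes encode complex I subunits), and Gm29216 matches the last part of mt-Co1 at 99.793% over 483 bases. Next, 2 pairs are shown, since their near-identity bears on every value of these entries. The windows are the first 60 bases of the GENCODE M21 transcripts, and capitals mark the only mismatch.
mt-Nd3: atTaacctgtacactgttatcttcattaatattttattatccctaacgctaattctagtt
Gm28438: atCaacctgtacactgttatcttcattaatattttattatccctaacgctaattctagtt
mt-Co3: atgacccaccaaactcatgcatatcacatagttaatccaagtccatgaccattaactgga
Gm28437: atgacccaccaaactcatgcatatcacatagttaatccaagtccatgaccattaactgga
The Gm28438 copy differs from mt-Nd3 by T3C, counted from base 1 of the transcript, and by no other base over the 345 aligned. In Gm28437 no base differs from mt-Co3 over all 783. A read from such a stretch cannot be placed by sequence, so the split of counts between gene and copy is uncertain.

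Together the 6 copies held 14.1%, 11.7% and 12.0% of the counts in ISO and 5.78%, 3.64% and 6.13% with PS. All PS values lay under all ISO values (12.6% ± 1.3 against 5.18% ± 1.35, SD, n = 3 each, exact permutation p = 0.1). The other 21441 entries absent from batch 1 held only 0.747% to 0.840% of the counts in ISO and 0.577% to 0.731% with PS. Mitochondrial protein-coding genes and copies summed to 31.9%, 32.0% and 32.4% in ISO, a spread of 0.259 (SD), and to 22.1%, 17.0% and 18.5% with PS. The difference of means was -12.9 percentage points for this sum and -5.49 for the mitochondrial genes alone.

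**Figure D3:**
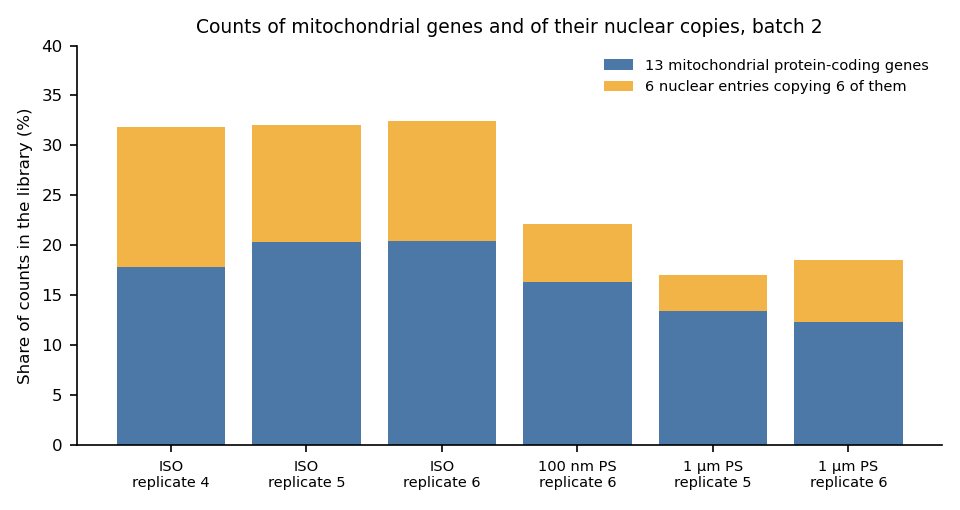
Share of each batch 2 library's counts, in percent, given to the 13 mitochondrial protein-coding genes (blue) and to 6 nuclear entries that copy 6 of them (yellow). The summed bars stand at 31.9% to 32.4% in the 3 ISO libraries and at 17.0% to 22.1% in the 3 PS libraries.

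Of the 13 mitochondrial protein-coding genes 6 fell and none rose, against 4.5% lower among all genes, with a median log2 fold change of -0.99. None of the 13 was called without ISO replicate 4, 100 nm PS replicate 6 or 1 µm PS replicate 5, and 2 were without ISO replicate 5 and 4 without ISO replicate 6. The 6 were mt-Nd1, mt-Nd3 and mt-Nd4l of complex I, mt-Co2 and mt-Co3 of complex IV, and mt-Atp6 of ATP synthase. mt-Nd3 was at 1331, 896 and 508 CPM in ISO and at 240, 139 and 285 CPM with PS (log2 fold change -2.04, SE 0.38, adjusted p = 0.02196), and its copy Gm28438 at 6019, 4248 and 3788 CPM in ISO and at 1349, 951 and 1794 CPM with PS (-1.78, SE 0.30). Gene and copy fell alike, and with the 2 counts added the log2 fold change was -1.82 (SE 0.31, adjusted p = 0.0223). mt-Co2 held 868, 847 and 628 CPM in ISO and 245, 314 and 282 CPM with PS (-1.48, SE 0.24), while its copy Gm28661 held 38122, 35999 and 38126 CPM and then 15818, 14613 and 16751 CPM (-1.25, SE 0.23). The copy's share of the mt-Co2 pair was 97.7% to 98.38% in ISO and 97.9% to 98.47% with PS, so the split itself hardly differed between arms. For mt-Co1 the split did differ: Gm29216 took 11.83% to 16.84% of the pair in ISO and 4.27% to 10.3% with PS, and mt-Co1 alone did not pass (-0.66, SE 0.25, adjusted p = 0.1145). mt-Nd4l passed alone (-1.28, adjusted p = 0.02706) and did not with its copy Gm10222 added (-0.80, adjusted p = 0.154). With terms for GC content and length none of the 13 was called and their median was 0.51, so the direction of this list turned. All 13 lie among the shortest transcripts.

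Of 78 nuclear genes for the same machinery of oxidative phosphorylation, 40 were called lower, 0 higher, and the other 38 missed the threshold, against 4.5% lower among all genes, with a median of -0.96 on the log2 scale. Cox6c, a small subunit of cytochrome c oxidase, was at 1319, 731 and 848 CPM in ISO and at 228, 165 and 342 CPM with PS (-1.98, SE 0.33, adjusted p = 0.02186). Cox7b, another small subunit, went from 912, 556 and 649 CPM to 186, 150 and 249 CPM (-1.85, SE 0.28), and Cox7c from 1059, 768 and 672 CPM to 273, 239 and 342 CPM (-1.55, SE 0.26). In each of these 3 genes every PS library lay under every ISO library. Genes that encode larger subunits were among the 38 that did not pass, such as Sdha, Ndufs1, Uqcrc2 and Atp5b.

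Of 77 ribosomal protein genes, 46 were lower, none was higher and 31 did not pass, against 4.5% lower among all genes, with a median of -1.14. Rpl34 was at 228, 144 and 142 CPM in ISO and at 53.0, 42.3 and 68.5 CPM with PS (-1.65, SE 0.27, adjusted p = 0.02186). Rpl30 was at -1.66 (SE 0.28) and Rpl23 at -1.59 (SE 0.28), with arms that did not overlap. In batch 1, 24 of 76 ribosomal protein genes were lower (median -1.28) and 9 of 78 oxidative phosphorylation genes (median -0.69), when 10.3% of all genes tested in batch 1 were lower. No gene of either list passed the batch by PS term. Without ISO replicate 4, 100 nm PS replicate 6 or 1 µm PS replicate 5 no gene of either list was called in batch 2, and without ISO replicate 5 there were 14 oxidative phosphorylation and 16 ribosomal protein genes.

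Calls differed by transcript length. With the tested genes split by length into 4 classes of near equal size, 371 of 3497 genes in the shortest class were lower with PS (10.6%) and 13 higher (0.372%). In the longest class, 146 were higher and 71 lower. Of the oxidative phosphorylation genes 63 of 78 lay in the shortest class, and of the ribosomal protein genes 66 of 77. Called genes that fell had a median length of 1613 bases and a median GC content of 44.12%, those that rose 4547.5 bases and 56.78%, and all tested genes 3359 bases and 49.73%. With terms for GC content and length, none of the 40 and none of the 46 genes was called, and the medians of the lists were -0.42 and -0.66. Of the clock genes 3 of 19 lay in the shortest class.

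**Figure D4:**
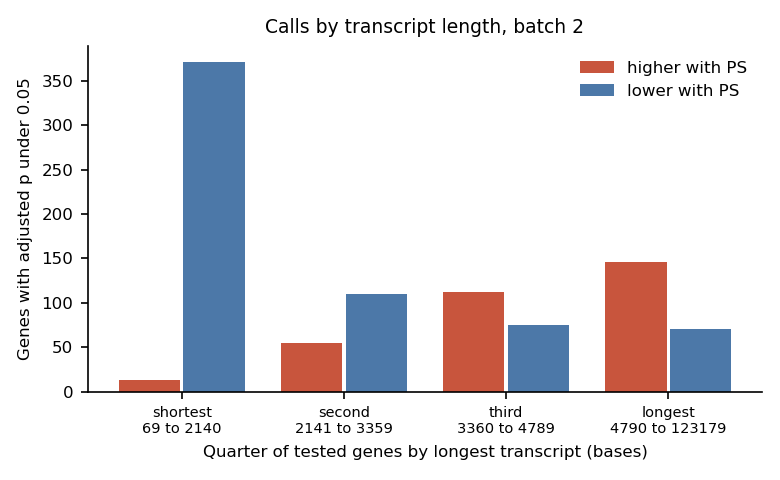
Number of genes called higher (red) or lower (blue) with PS in batch 2, in each of 4 classes of the tested genes by the length of the longest transcript in bases. Lower calls run from 371 in the shortest class to 71 in the longest, and higher calls from 13 to 146.

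Of 41 genes of collagens and other matrix proteins, 9 were higher with PS and none was lower, against 2.3% higher among all genes, and the median was 0.80. The 9 were Col4a1, Col4a2 and Col15a1 of basement membranes, the minor fibrillar collagen Col5a3, the matrix glycoproteins Fn1, Fbn1, Thbs1 and Tnc, and the membrane-bound protease Mmp14. Col5a3 was at 15.8, 23.4 and 25.2 CPM in ISO and at 61.1, 51.5 and 64.8 CPM with PS (1.46, SE 0.22, adjusted p = 0.02186). Mmp14 was at 13.4, 10.3 and 12.1 CPM in ISO and at 25.6, 23.2 and 26.9 CPM with PS (1.08, SE 0.19). Col4a1, at 394, 614 and 512 CPM in ISO, reached 1129, 1032 and 1051 CPM with PS (1.08, SE 0.24, adjusted p = 0.03058). The arms were separate in each of these 3 genes.

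The main fibrillar collagens gave higher means that did not pass. Col1a1 was at 71.2, 218 and 172 CPM in ISO and at 384, 282 and 250 CPM with PS (0.99, SE 0.36, adjusted p = 0.1091), with ISO replicate 4 low. Col3a1 (0.57, SE 0.29, adjusted p = 0.206) and the fibroblast matrix gene Postn (0.36, SE 0.55, adjusted p = 0.6959) overlapped between arms. Of the 14 fibroblast markers none passed, and they summed to between 2604 and 3243 CPM in ISO and between 2824 and 3502 CPM with PS. In batch 1, 18 of 41 matrix genes were higher and none lower, Col1a1 among them (2.08, SE 0.62, adjusted p = 0.03621), when 6.33% of all genes were higher, and no matrix gene passed the batch by PS term. With terms for GC content and length no matrix gene was called in batch 2 and the median was 0.38. Without ISO replicate 4, 100 nm PS replicate 6 or 1 µm PS replicate 5 none was called either, and without 1 µm PS replicate 6 there were 15.

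Of 19 genes of TGF-beta signalling, which drives fibroblasts to make matrix, 1 rose and 1 fell, against 2.3% higher and 4.5% lower among all genes. Ccn2, a target of that pathway, was at 50.3, 40.4 and 43.2 CPM in ISO and at 97.1, 107 and 59.5 CPM with PS (0.98, SE 0.24, adjusted p = 0.03931). Its receptor gene Tgfbr1 was at 13.3, 12.0 and 15.2 CPM in ISO and at 6.70, 6.70 and 8.87 CPM with PS (-0.86, SE 0.22, adjusted p = 0.04121). The arms of both genes were separate, but each missed the threshold in 5 of the 6 fits that left out 1 library. Ltbp4, which stores the latent ligand in the matrix, just missed the threshold (0.87, SE 0.24, adjusted p = 0.05131).

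**Figure D5:**
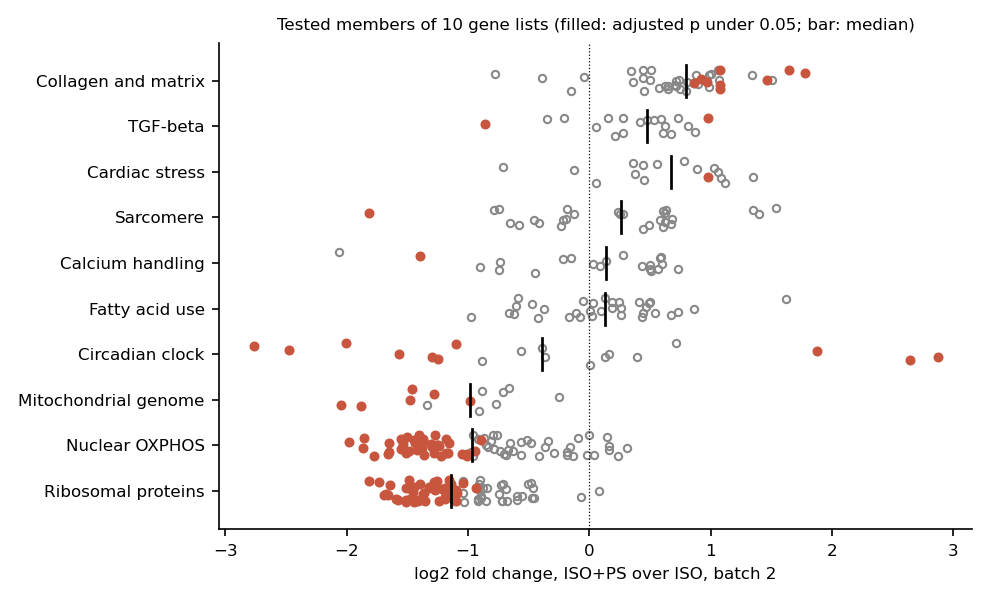
Log2 fold change of ISO with PS over ISO in batch 2 (x axis) for the tested members of 10 gene lists; each point is a gene, filled red where its adjusted p was under 0.05, and bars mark the list medians. All 13 mitochondrial genes lie left of 0, as do 76 of 77 ribosomal and 72 of 78 oxidative phosphorylation genes, while 37 of 41 matrix genes lie right of 0, and clock genes on both sides.

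Among genes of the contractile and excitation apparatus the share called was near the 6.8% of all genes. Of 21 calcium-handling genes 1 fell, Trdn, which anchors calsequestrin to the ryanodine receptor. Trdn was at 191, 115 and 173 CPM in ISO and at 61.6, 46.7 and 74.5 CPM with PS, without overlap (-1.39, SE 0.26, adjusted p = 0.02196), and it was lower in batch 1 too (-1.13, SE 0.16, adjusted p = 0.003432). The calcium pump gene Atp2a2 was at 5173, 3550 and 6042 CPM in ISO and at 4228, 12066 and 4577 CPM with PS (0.50, SE 0.40, adjusted p = 0.4275), where 1 µm PS replicate 5 was the high library. Of 28 sarcomere genes 1 fell, Tcap (telethonin, which caps titin at the Z disc), from 3473, 2466 and 1911 CPM to 724, 723 and 788 CPM (-1.81, SE 0.27, adjusted p = 0.02186). Tcap is the sarcomere gene that passed the batch by PS term downwards (-2.90, SE 0.62, adjusted p = 0.03208), with 1.09 (SE 0.45, adjusted p = 0.1078) in batch 1, and it was still called with terms for GC content and length (-1.60, adjusted p = 0.0298). Of 21 ion channel and coupling genes 1 rose, the pacemaker channel gene Hcn2 (1.303, SE 0.28, adjusted p = 0.02582). With terms for GC content and length, no calcium-handling or ion channel gene was called. Of the 6 fits that left out 1 library, Trdn missed the threshold in 4, Tcap in 3 and Hcn2 in 5.

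Of 16 natriuretic peptide and stress genes of the heart, 1 passed, Ccn2. Over all genes 6.8% were called, which is the share to set beside each list in this paragraph. Nppa, the gene for atrial natriuretic peptide, was at 560, 761 and 666 CPM in ISO and at 490, 376 and 348 CPM with PS (-0.71, SE 0.24, adjusted p = 0.08691), without overlap, whereas in batch 1 it rose (2.16, SE 0.68, adjusted p = 0.04569). The difference between batches in Nppa did not pass (-2.87, SE 0.86, adjusted p = 0.08036). Nppb (0.56, SE 0.26), Myh6 (0.63, SE 0.28), Myh7 (0.44, SE 0.28) and Acta1 (1.35, SE 0.60), encoding B-type natriuretic peptide, the 2 cardiac myosin heavy chains and skeletal alpha-actin, had adjusted p-values from 0.157 to 0.3079. Of 25 genes of beta-adrenergic signalling, the route through which isoproterenol acts, none passed. The smallest adjusted p was that of the anchoring protein gene Akap13 (0.70, SE 0.21, adjusted p = 0.05969). Of 28 immediate early genes, Fosl2, an AP-1 subunit, rose (1.12, SE 0.25, adjusted p = 0.0306).

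Genes of fatty acid uptake and oxidation serve the main fuel route of the heart. None of 33 passed in batch 2 (median 0.13), where 6.8% of all genes did. In batch 1, 20 were lower and none higher (median -0.87), against 10.3% of all genes lower. The batch by PS term called 4, all higher in batch 2, against 1.3% of all genes called higher. Plin5, which coats lipid droplets, was at 81.8, 59.6 and 64.4 CPM in ISO and at 91.6, 137 and 114 CPM with PS in batch 2 (0.73, SE 0.22, adjusted p = 0.06573). Its log2 fold change in batch 1 was -0.77 (SE 0.25, adjusted p = 0.05284), and the difference passed (1.4999, SE 0.38, adjusted p = 0.04699). Lpl, which frees fatty acids at the vessel wall, was at -0.97 (SE 0.31, adjusted p = 0.07249) in batch 2 and at -0.88 (SE 0.27, adjusted p = 0.04159) in batch 1.

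Among the largest rises outside these lists were Adamts4, a protease of matrix proteoglycans (2.74, SE 0.50), Srcap, a chromatin remodeller (2.43, SE 0.40), Ccnjl (2.36, SE 0.48), Spon2, a matrix protein (2.04, SE 0.32), Cdyl2 (1.92, SE 0.47) and Fam222a (1.80, SE 0.41). Cdkn1a, the cell cycle inhibitor p21, was at 19.7, 35.9 and 26.0 CPM in ISO and at 79.5, 107 and 118 CPM with PS, each PS value more than any ISO value (1.90, SE 0.26, adjusted p = 0.01837). In batch 1 Cdkn1a gave -0.62 (SE 0.42, adjusted p = 0.3181), and the difference passed (2.51, SE 0.62, adjusted p = 0.04435). Spon2 was at 2.51, 6.35 and 2.95 CPM in ISO and at 16.2, 16.1 and 16.4 CPM with PS, a tight set well above the ISO libraries. Adjusted p-values of these 7 genes lay between 0.01837 and 0.03793. Levels in ISO were low for Adamts4 (0.528, 0.555 and 0.289 CPM), Ccnjl (0.198, 0.555 and 0.636 CPM) and Cdyl2 (0.264, 0.555 and 0.463 CPM). Of the 6 fits that left out 1 library, Ccnjl, Cdyl2 and Fam222a missed the threshold in 5. Adamts4 and Srcap missed it in 4, Spon2 in 3 and Cdkn1a in 2. With terms for GC content and length only Cdkn1a of the 7 was still called.

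Large falls included Apoa2, an apolipoprotein made mainly by liver (-3.64, SE 0.86, adjusted p = 0.03992), Slc51a, a bile acid transporter (-3.56, SE 0.87, adjusted p = 0.04935), the calcium-binding protein gene S100a9 (-3.14, SE 0.69, adjusted p = 0.0283), the natural killer receptor gene Klra9 (-2.56, SE 0.62), the small nuclear RNA Rn7sk (-2.64, SE 0.52), Iqcg (-2.38, SE 0.53) and Zfp97 (-2.22, SE 0.36). Several rest on uneven ISO libraries. Apoa2 was at 1.65, 0.863 and 8.62 CPM in ISO and at 0.375, 0.309 and 0.192 CPM with PS. Slc51a was at 14.6, 4.07 and 1.21 CPM in ISO and at 0.328, 0.662 and 0.671 CPM with PS. In each, a single ISO library held most of the group's counts, although no PS value reached an ISO value.

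Entries absent from the batch 1 table gave 36 calls among 730 tested (4.93%), 2 higher (0.274%) and 34 lower (4.66%). Of the joined genes 928 were called (6.9%), 324 higher (2.41%) and 604 lower (4.49%). By the annotation's type, 5 of the 34 fallers were unprocessed pseudogenes, all of them copies of mitochondrial genes, 7 were long intergenic RNAs, 6 antisense RNAs, 4 protein-coding and 3 processed pseudogenes. Gm10222 is the copy that did not pass (-0.74, SE 0.36, adjusted p = 0.1907). Gm56450 fell from 31.8, 24.2 and 30.2 CPM to 10.6, 8.51 and 11.2 CPM (-1.51, SE 0.20, adjusted p = 0.01837) and Gm29562 from 28.4, 27.1 and 33.0 CPM to 13.6, 9.39 and 12.8 CPM (-1.30, SE 0.21, adjusted p = 0.02186), both with separate arms. The most abundant absent entry, Gm28437, went from 79497, 53238 and 50396 CPM to 22777, 12933 and 21002 CPM (-1.69, SE 0.30, adjusted p = 0.02186). Gm10925 (-1.62, SE 0.28) and Gm29216 (-1.88, SE 0.33) fell too. Without ISO replicate 4 or 100 nm PS replicate 6 only 1 absent entry was called, without 1 µm PS replicate 5 only 2, without ISO replicate 5 there were 15, and without 1 µm PS replicate 6 there were 62.

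Of the 2 absent entries that rose, Gm49388 shares its sequence with other genes. Gm49388 was at 0, 0.0616 and 0 CPM in ISO and at 7.12, 13.3 and 5.03 CPM with PS, near absence against presence (adjusted p = 0.001192). Its transcript of 5188 bases matches Setd1a, a histone methyltransferase, at 100% over 3527 bases and Hsd3b7, an enzyme of bile acid synthesis, at 100% over 1667 bases. Neither partner passed: Setd1a was at 0.44 (SE 0.24, adjusted p = 0.2468) and Hsd3b7 at -0.22 (SE 0.23, adjusted p = 0.5534). The other was a further entry named Gcat, with 0 counts in all ISO libraries and 74, 58 and 10 with PS, at least 11.7-fold higher when each ISO library is set at 3 counts. The Gcat entry that was joined to batch 1 was at -0.46 (SE 0.28, adjusted p = 0.2971).

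Counts of 0 in all ISO libraries with at least 10 in every PS library were found for 3 entries, and the reverse for none. Besides this second Gcat entry they were Gm15429, with 129, 228 and 112 counts with PS (at least 38.6-fold higher), and Zxda, with 14, 47 and 21 counts (at least 6.71-fold higher). Gm15429 is identical over all of its 798 bases to a stretch of Aph1a, a subunit of gamma-secretase, whose first 60 shared bases are shown because no read can tell them apart.
Aph1a: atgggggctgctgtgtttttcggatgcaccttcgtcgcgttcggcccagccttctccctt
Gm15429: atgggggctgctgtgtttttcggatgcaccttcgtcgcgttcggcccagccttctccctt
These are bases 117 to 176 of the Aph1a transcript and 1 to 60 of Gm15429, with no mismatch and so no capitals. Aph1a was at 97.0, 91.8 and 82.3 CPM in ISO and at 88.4, 102 and 92.5 CPM with PS (0.06, SE 0.19, adjusted p = 0.8559), arms that overlapped. Zxda has a near copy in Zxdb (99.962% over 2622 aligned bases), which was at -0.10 (SE 0.32). The sources used here do not state how reads of shared stretches were divided or whether strand was used, so the values of Gm15429, Gm49388 and Zxda are uncertain.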

How the data were processed

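RNA-seq of whole mouse hearts was analysed from the 2 deposited tables. Batch 1 holds counts per gene, as the authors deposited them (whole numbers, Entrez numbers). Batch 2 holds estimated counts per Ensembl gene, as the authors deposited them. Of its non-zero values 19.633% are not whole, and all were rounded. Tools in the submitters' processing notes are featureCounts 1.5.0-p3, StringTie 1.3.3b, HISAT2 2.0.5, DESeq2 and fastp, with the build GRCm39. The sources used here do not state which of these gave the batch 2 values.

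Batch 2 entries were joined to batch 1 through GENCODE M21 Entrez pairs (22167) or an identical unique symbol (13396), leaving 21447 absent. Names, types, transcript lengths and GC content came from M21, an annotation of an earlier build, which holds 91.354% of the entries. The test was edgeR 4.0.16 quasi-likelihood with TMM scaling and filterByExpr (minimum count 10), R 4.3.3, adjusted by Benjamini-Hochberg over all genes tested. The batch by PS term was fitted over 18 libraries. Shares were compared by exact permutation (scipy). CPM values use the TMM-scaled library size. The batch 2 fit was checked on simulated data. Alternatives used limma 3.58.1 and DESeq2 1.42.0. Members and gene lists were chosen with earlier results of these data known. Genes named were the 10 largest rises and falls with a full symbol, mean CPM of at least 1 and separate arms, the 3 smallest p of each of 12 lists, the 5 absent entries of smallest p in each direction and of highest mean CPM, 5 genes per direction of the batch by PS term, and 10 fixed cardiac genes; further names complete a count or were chosen after their values were seen. Results of some genes are not reported here.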

Additional observations from a re-analysis of the deposited data

Results flagged for a closer look

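For 9 genes, taken from the 5 with the smallest p in each direction, the effect of PS differed between batch 2 and batch 1 by the test of that difference (edgeR batch by PS term, log2 scale, batch 2 minus batch 1, adjusted over 15441 genes). Higher in batch 2 were Nfil3 (3.16, adjusted p = 0.001029), Dusp8 (2.86, adjusted p = 0.003644), Gemin5, of the SMN complex (1.68, adjusted p = 0.009884), Atp6v0a2, a proton pump subunit (1.32, adjusted p = 0.009884), and Gm15429, whose fitted value of 11.6 (adjusted p = 0.000135) depends on the prior count because it had 0 counts in all ISO libraries of batch 2. Lower in batch 2 were Dbp (-5.83, adjusted p = 0.007009), Nr1d2 (-2.56, adjusted p = 0.009794), Isg20 (-2.10, adjusted p = 0.003926) and Sdhaf4 (-1.46, adjusted p = 0.003926). These 9 passed without each of the 18 libraries in turn. Gm15429, Nfil3 and Dbp passed under all 9 other settings as well, while 5 of the others missed the threshold under 1 of them and Sdhaf4 under 2.

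Atp6v0a2 on the joint scale of both batches ran from 63.5 to 80.9 CPM in ISO and from 37.7 to 47.3 CPM with PS in batch 1, and from 43.7 to 44.9 CPM in ISO and from 51.1 to 79.3 CPM with PS in batch 2.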

How the results depend on the processing

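With 3 libraries against 3, the calls in batch 2 depend on every library and on how GC content and length are treated, while the directions of most named genes do not. The 964 calls became 2338 with no filter, 2127 with DESeq2, 2200 with limma voom and quality weights, 2436 at an adjusted p of 0.1, 608 at a change of at least 2-fold, 355 with a GC spline (35 higher), and 17 with a GC and length spline, which was chosen after seeing the data. Leaving out single libraries gave 4 to 1570. Upper-quartile scaling gave 214 higher and 738 lower against 326 and 638. The 36 absent entries became 121 with no filter, 72 with DESeq2, 86 with voom, 90 at 0.1, 20 with the GC spline and 1 with the GC and length spline, and 1 to 62 without single libraries. The 339 batch by PS calls became 120 with no filter, 778 with voom (266 higher), 1238 with DESeq2, 946 at 0.1, 2142 without ISO replicates 1 and 2 (chosen after seeing the data), and 12 to 3227 without single libraries.

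The replicate numbers were checked for pairing by the correlation, over genes, of deviations from the arm mean. It was 0.014 for ISO replicate 5 with 1 µm PS replicate 5. For ISO replicate 6 it was 0.038 with 100 nm PS replicate 6 and -0.29 with 1 µm PS replicate 6. In batch 2 no PS library has the number of ISO replicate 4, and so few values cannot settle whether libraries were paired. With the number as a replicate block, 3 genes, 1 absent entry and 3 batch by PS differences were called.

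Of 47 named genes that passed in batch 2, 2 passed without every single library, and 40 kept their sign under every setting. Signs turned with the GC and length spline for Cox7c (0.037), mt-Co2 (0.15), mt-Atp6 (0.26), mt-Nd3 (0.15), Gm28438 (0.39), Gm10925 (0.045), Gm28661 (0.32) and Myh7 (-0.19), without 100 nm PS replicate 6 for Postn (-0.434, in a range up to 0.888 over the libraries left out) and without 1 µm PS replicate 5 for Atp2a2 (-0.159, in a range up to 0.763). The causes were not tested. The 5 shares kept their direction under all 8 alternatives, and with 3 libraries against 3 no share could pass 0.05.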

Other observations

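Among immune and defence genes the share called was near the 6.8% of all genes. Of 33 interferon-induced genes 1 fell and none rose (median -0.36): Iigp1, a GTPase against intracellular pathogens, went from 26.7, 16.9 and 23.4 CPM in ISO to 7.73, 7.81 and 11.8 CPM with PS (-1.29, SE 0.25, adjusted p = 0.02196), and it was lower in batch 1 too (-3.12, adjusted p = 0.005875). Of 22 inflammatory genes Nfkb2, a subunit of NF-kappaB, rose (0.87, SE 0.18, adjusted p = 0.02475) and Casp1, the inflammasome protease, fell (-1.58, SE 0.40, adjusted p = 0.04225). Of 24 antioxidant genes Txn1 (thioredoxin) fell (-1.03, SE 0.19, adjusted p = 0.02196), and of 30 chaperone genes Hspe1, of the mitochondrial chaperonin, fell (-0.97, SE 0.24, adjusted p = 0.03862).

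Markers of other cell types gave 6 calls over their lists, where 6.8% of all genes were called. These were 1 each of 14 smooth muscle and pericyte, 2 adipocyte, 16 endothelial, 16 macrophage, 4 neutrophil and 8 red cell markers tested. The other marker lists gave none. The pericyte and smooth muscle gene Notch3 rose from 31.2, 45.5 and 51.4 CPM to 98.2, 91.6 and 85.7 CPM (1.10, SE 0.22, adjusted p = 0.02315), and the lipogenic enzyme gene Fasn rose (0.99, SE 0.19). Fabp4 of capillary endothelium (-1.60, SE 0.42, adjusted p = 0.04946), Plac8 (-3.00, SE 0.65), S100a9 and the beta-globin gene Hbb-bt (-1.34, SE 0.34, adjusted p = 0.04302) fell. In their lists, 13 of 16 endothelial markers (median 0.35), 9 of 16 macrophage markers (median 0.10) and 3 of 4 neutrophil markers (median 0.17, S100a9 the exception) had values above 0, while all 8 red cell markers had values below 0 (median -1.17). Red cell markers summed to 1638 to 3395 CPM in ISO and to 625.5 to 1329 CPM with PS, with 1 of 8 tested members called. Of these 8 red cell markers 6 lay in the shortest class by transcript length. With terms for GC content and length their median was -0.51 and none was called. Their part in the other results was not tested.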
